A study of Mus musculus with 2 samples.

Results

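The genes described here are 6 components of death receptor signaling: the ligands Tnfsf10 and Fasl, the receptors Tnfrsf10b and Fas, and the intracellular regulators Cflar and Bid. They were chosen by symbol, and all 6 were found among the 32285 features of both libraries. The data are droplet-based single-cell RNA-seq of MC38 tumors, grown subcutaneously in the right flank of C57BL/6 mice. MC38 is a mouse colon carcinoma line, and MSA-2 is a nonnucleotide small-molecule agonist of STING, the receptor that links cytosolic DNA sensing to type I interferon. The mice were 6 to 8 weeks old. The methods give both sexes for the MC38 models in general, without the sex of the mice in each library. The agent was given into the tumor in 3 doses spaced 3 days apart, the final dose on day 6, with collection on day 7. One library was made from MSA-2–treated tumors and 1 from tumors that the sample labels call untreated; the series record gives these a saline vehicle with 10% DMSO, and the methods call them saline treated. Per the series record, each library pooled material from 3 mice, so that no test between the conditions was possible and every interval below is an exact 95% interval that covers counting error only.

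TRAIL, encoded by Tnfsf10, and Fas ligand, encoded by Fasl, are trimeric ligands of the TNF superfamily that are best known as killing molecules of NK cells and T cells. TRAIL binds the death receptor DR5, encoded by Tnfrsf10b and the only TRAIL death receptor of the mouse, and Fas ligand binds Fas. The ligated receptors recruit the adaptor FADD and procaspase-8. c-FLIP, encoded by Cflar, competes for places in that complex and restrains caspase-8, whereas Bid is a caspase-8 substrate that carries the signal to mitochondria. Tnfsf10 and Fas are known interferon-responsive genes.

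The deposited values are counts of unique molecular identifiers (UMIs), each standing for 1 captured transcript. After filtering and doublet removal, 13334 untreated cells with 183355500 UMIs and 13393 MSA-2 cells with 191888910 UMIs were kept, with medians of 8298.5 and 9271 UMIs per cell, and the libraries shared 53 barcodes. Cells were gated into classes by marker genes, and a level is the number of UMIs per 1000000 UMIs of all genes in the class (CPM). The classes compared held 6402 untreated and 6856 MSA-2 tumor-like cells, 201 and 595 fibroblast-like cells, 60 and 71 endothelial-like cells, 363 and 800 Ly6c2 monocyte-like cells, 3584 and 1096 macrophage-like cells, and 1429 and 243 NK/T-like cells, of which 723 and 88 were CD8 T-like and 170 and 81 NK-like. Neutrophil-like cells numbered 32 in untreated and 2512 in MSA-2–treated tumors. The labels describe the cell type as tumor cells, but the libraries held all of these classes. In tumor-like cells the keratins and Epcam were at or near 0 (0.159 and 0.262 CPM for Krt8), and the class rested on Gng11, Anxa1, Ccn1 and Cdkn2a. Of the Ly6c2 monocyte-like cells, 91.2% of the untreated ones lay in a cluster of mostly macrophage-like cells and 93.6% of the MSA-2 ones in a separate monocyte-like cluster, so cells of that name mostly came from different clusters in the 2 libraries. Macrophage-like cells also differed in this way, with 46.4% of the untreated ones in cluster 4 and 69.3% of the MSA-2 ones in cluster 18, and tumor-like cells lay mostly in clusters of 1 library. NK/T-like cells had their largest cluster in cluster 14 untreated (38% of cells) and in cluster 8 after MSA-2 (39.1%), and NK-like cells were 170 of 1429 of the class untreated and 81 of 243 after MSA-2. Ratios of macrophage-like, tumor-like and NK/T-like cells are therefore also given within the clusters that held at least 50 cells of the class in each library, a comparison added after the data had been seen. No cluster held that many Ly6c2 monocyte-like cells of both libraries, so the ratios of that class could not be set against values within a cluster. The 10 neutrophil markers together reached 488 CPM in tumor-like cells of the MSA-2 library against 7.03 CPM in the untreated library, beside 102869 CPM in MSA-2 neutrophil-like cells. In the other compared classes this list lay between 5.29 and 299 CPM untreated and between 601 and 2578 CPM after MSA-2, and its part in the results was not tested.

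In the GENCODE M21 annotation of GRCm38, which is mm10, the genes, all protein coding, lie at chr3:27317028-27342427 (Tnfsf10, ENSMUSG00000039304, plus strand), chr14:69767472-69784411 (Tnfrsf10b, ENSMUSG00000022074, plus strand), chr19:34290666-34327772 (Fas, ENSMUSG00000024778, plus strand), chr1:161780689-161788495 (Fasl, ENSMUSG00000000817, minus strand), chr1:58711508-58758884 (Cflar, ENSMUSG00000026031, plus strand) and chr6:120891930-120916853 (Bid, ENSMUSG00000004446, minus strand). Exons of Bid overlap those of Bcl2l13 on the opposite strand, and whether counting used the strand is not given in the sources used here; no other member shares exons with an annotated gene. RefSeq promoter windows of 300 bases, from 250 bases before to 50 bases after the start site (GRCm38.p6), were found for 5 of the 6 genes. They were searched on both strands for GAAANNGAA, the core of the interferon-stimulated response element, present in 8.56% of all 32851 windows, and for TTCNNNGAA, the core of the gamma-activated sequence, present in 8.3%. AANNGAAA, the core bound by interferon regulatory factors, is present in 23.9% and was added after the sequences had been seen. The stretches of Tnfsf10, Fas and Cflar that hold the matches are shown because these 3 genes were higher in MSA-2–treated tumors in most classes. They are written 5′ to 3′ on the gene's strand with the matches in capitals, and lie at chr3:27316927-27317057, chr19:34290509-34290658 and chr1:58711341-58711507.
Tnfsf10: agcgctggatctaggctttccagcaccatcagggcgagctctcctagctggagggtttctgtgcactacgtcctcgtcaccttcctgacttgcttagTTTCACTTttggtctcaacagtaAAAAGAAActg
Fas: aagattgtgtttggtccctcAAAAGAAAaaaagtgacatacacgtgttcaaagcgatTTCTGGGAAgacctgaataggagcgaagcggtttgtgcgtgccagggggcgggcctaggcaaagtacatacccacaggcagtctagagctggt
Cflar: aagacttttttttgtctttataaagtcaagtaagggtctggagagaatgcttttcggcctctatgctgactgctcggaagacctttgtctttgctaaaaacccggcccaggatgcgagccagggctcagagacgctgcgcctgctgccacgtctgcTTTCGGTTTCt

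The Tnfsf10 window held AANNGAAA at 53 to 46 bases upstream of the RefSeq start on the opposite strand and again at 30 to 23 bases upstream, with neither of the other motifs. The GENCODE start of Tnfsf10 lies within the first of these matches, so that by GENCODE the second is inside the gene. The Fas window held the palindromic TTCNNNGAA at 93 to 85 bases upstream and AANNGAAA at 130 to 123 bases upstream, with another AANNGAAA after the start site that is not shown. In Cflar, GAAANNGAA lay on the opposite strand at bases 8 to 16 after the RefSeq start, just before the GENCODE start, and overlapped an AANNGAAA match at bases 7 to 14. The windows of Fasl and Bid held none of the 3 motifs. A match is a description of the letters and not evidence of binding.

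The 6 genes differed in the cells that carried them. Tumor-like cells held 78.8% of the UMIs of all genes in the untreated library and 83.6% in the MSA-2 library, which is the measure for their share of any single gene. They held 88.0% of all Tnfrsf10b UMIs of the untreated library and 90.3% of those of the MSA-2 library, and 86.0% and 88.8% of the Bid UMIs. For Fas these shares were 77.2% and 75.3%, and for Cflar 66.2% and 65.5%, below the share of all UMIs. Fasl was instead a gene of NK/T-like cells, which held 3.09% and 0.7% of all UMIs but 81.5% of its UMIs in untreated and 54.9% in MSA-2–treated tumors. Tnfsf10 was divided in the untreated library between tumor-like cells (52.1%), NK/T-like cells (26.9%) and macrophage-like cells (13%). After MSA-2 the tumor-like share of Tnfsf10 was 70.5% and the NK/T-like share 2.47%, beside a share of NK/T-like cells among all cells of 10.7% in untreated and 1.81% in MSA-2–treated tumors.

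**Figure D1:**
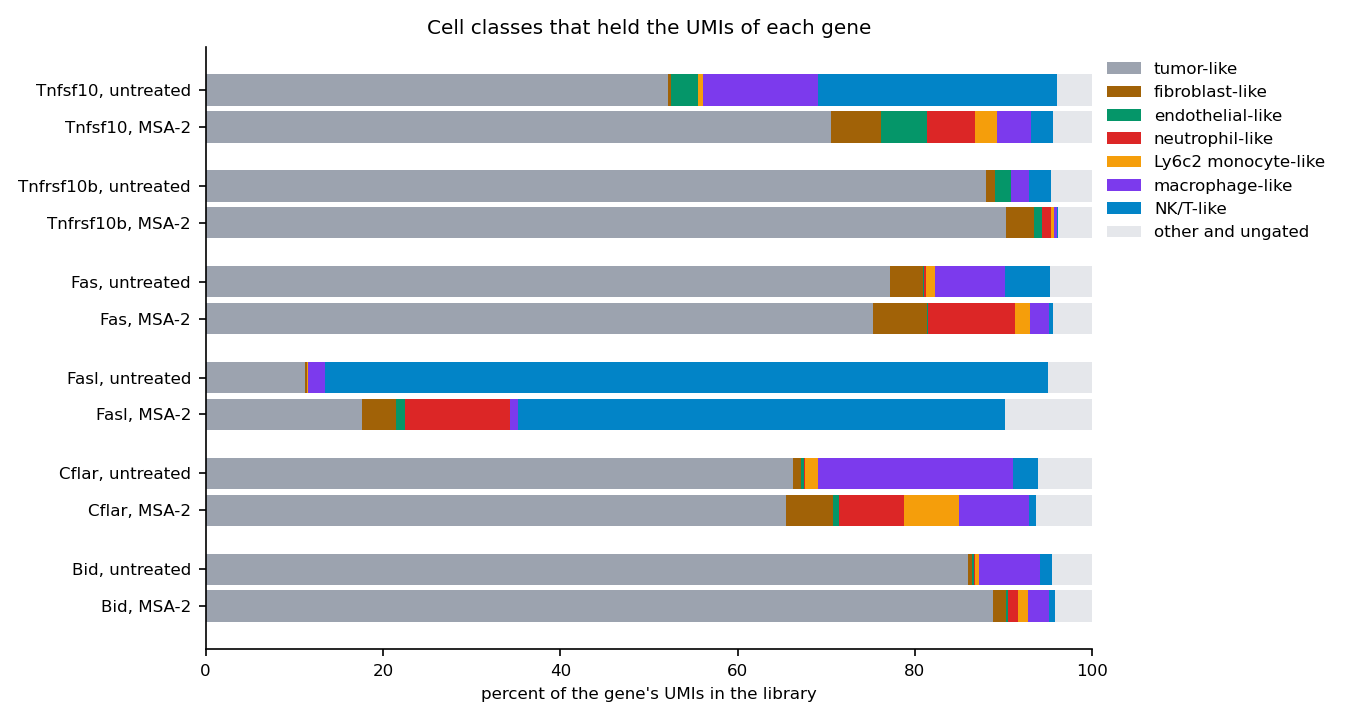
Percent of each gene's UMIs in the untreated and MSA-2 libraries (x axis) held by each cell class (colors), 1 bar per gene and library. Tumor-like cells held 88.0% of untreated Tnfrsf10b UMIs, whereas NK/T-like cells held 81.5% of untreated Fasl UMIs.

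Tnfsf10 was higher after MSA-2 in tumor, stromal and myeloid classes and lower in NK/T-like cells. Over all kept cells its level was 7.07 CPM in the untreated and 11.2 CPM in the MSA-2 library, a log2 ratio of 0.66 (0.56 to 0.77). In the untreated library endothelial-like cells (71.1 CPM) and NK/T-like cells (61.4 CPM) were highest, with overlapping intervals. Macrophage-like (8.15 CPM), Ly6c2 monocyte-like (5.29 CPM), tumor-like (4.67 CPM) and fibroblast-like cells (2.04 CPM) followed far below them, again with intervals that overlapped between neighbors. In the MSA-2 library endothelial-like cells stood alone at the top with 143 CPM (118 to 172), above NK/T-like cells with 39.5 CPM (29.6 to 51.6). Neutrophil-like (23.8 CPM), Ly6c2 monocyte-like (18.2 CPM), macrophage-like (15.1 CPM) and fibroblast-like cells (14.7 CPM) then followed with no gap between the intervals of neighbors, and tumor-like cells were lowest with 9.45 CPM.

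The ratio of Tnfsf10 was widest in fibroblast-like cells, with 5 untreated against 123 MSA-2 UMIs and a 7.21-fold higher level (log2 ratio 2.85, interval 1.59 to 4.50). Ly6c2 monocyte-like cells had a log2 ratio of 1.78 (0.64 to 3.16) on 7 and 52 UMIs. Tumor-like (1.02, interval 0.88 to 1.15), endothelial-like (1.01, 0.47 to 1.57) and macrophage-like cells (0.89, 0.49 to 1.27) were all close to 2-fold. Within the shared macrophage-like clusters 4 and 18 the log2 ratios of 0.19 (-1.17 to 1.28) and 0.98 (-0.44 to 2.89) had intervals that held 0, and within the shared tumor-like clusters 9 and 12 they were 1.11 and 1.35. The endothelial-like value was 0.85, under 2-fold, with classes from clusters. The value of tumor-like cells fell below 2-fold under 5 of the processing alternatives, to as little as 0.75 with equal weight per cell. In NK/T-like cells the level was lower after MSA-2, with a log2 ratio of -0.64 (-1.08 to -0.22) on 348 and 53 UMIs. Within NK/T-like cluster 8 the ratio was -1.90 (-2.90 to -1.02), and within cluster 14 it was -0.05 (-0.65 to 0.50), an interval that held 0. Cluster 5, also mostly NK/T-like, was not lower. Over all its 524 untreated and 67 MSA-2 cells Tnfsf10 was at 48.9 and 57.9 CPM. The share of tumor-like cells with a Tnfsf10 UMI was 8.95% in untreated and 16.2% in MSA-2–treated tumors, and 1.12% and 1.64% once every cell was cut down at random to 1500 UMIs (thinned below).

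Fasl, the other ligand, was lower in MSA-2–treated tumors both in the whole library and within NK/T-like cells. The untreated library held 518 Fasl UMIs (2.83 CPM) and the MSA-2 library 102 (0.532 CPM), a 5.31-fold lower level (log2 ratio -2.41, -2.73 to -2.10). In such a sum over all cells, fewer NK/T-like cells and less Fasl per cell cannot be told apart. Within NK/T-like cells the difference was smaller, 74.5 CPM (67.5 to 81.9) against 41.7 CPM (31.5 to 54.1), and the intervals did not overlap. A Fasl UMI was seen in 22.5% of untreated and 17.3% of MSA-2 NK/T-like cells at median depths of 3362 and 4803 UMIs, and in 10.3% and 5.56% after thinning. As a comparison for free RNA, fibroblast-like cells carried it in 0.498% (1 of 201) and 0.672% (4 of 595) of cells at median depths of 11522 and 12908 UMIs. The NK/T-like clusters 8 and 14 held at least 50 cells of the class in each library. Their log2 ratios of Fasl were -0.28 (-0.98 to 0.39) and -0.80 (-1.47 to -0.18). Cluster 5, also mostly NK/T-like, held too few MSA-2 cells of the class for a ratio. Over all its 524 untreated and 67 MSA-2 cells Fasl was at 113 and 26.3 CPM, values given without an interval.

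Fasl was also lower in tumor-like cells, but at a trace level: 58 UMIs in 6402 untreated cells (0.402 CPM) and 18 in 6856 MSA-2 cells (0.112 CPM). The 12 NK/T markers together were at 30.9 CPM in untreated cells and 8.52 CPM in MSA-2 tumor-like cells, the same direction, and their part in this difference was not tested. With 1 CPM added to both levels the log2 ratio of -1.84 shrank to -0.33. Endothelial-like cells had 0 and 1 Fasl UMIs, where a count of 0 allows up to 5.33 CPM, and Treg-like cells had 0 UMIs in 79 untreated cells, which allows up to 8.18 CPM.

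**Figure D2:**
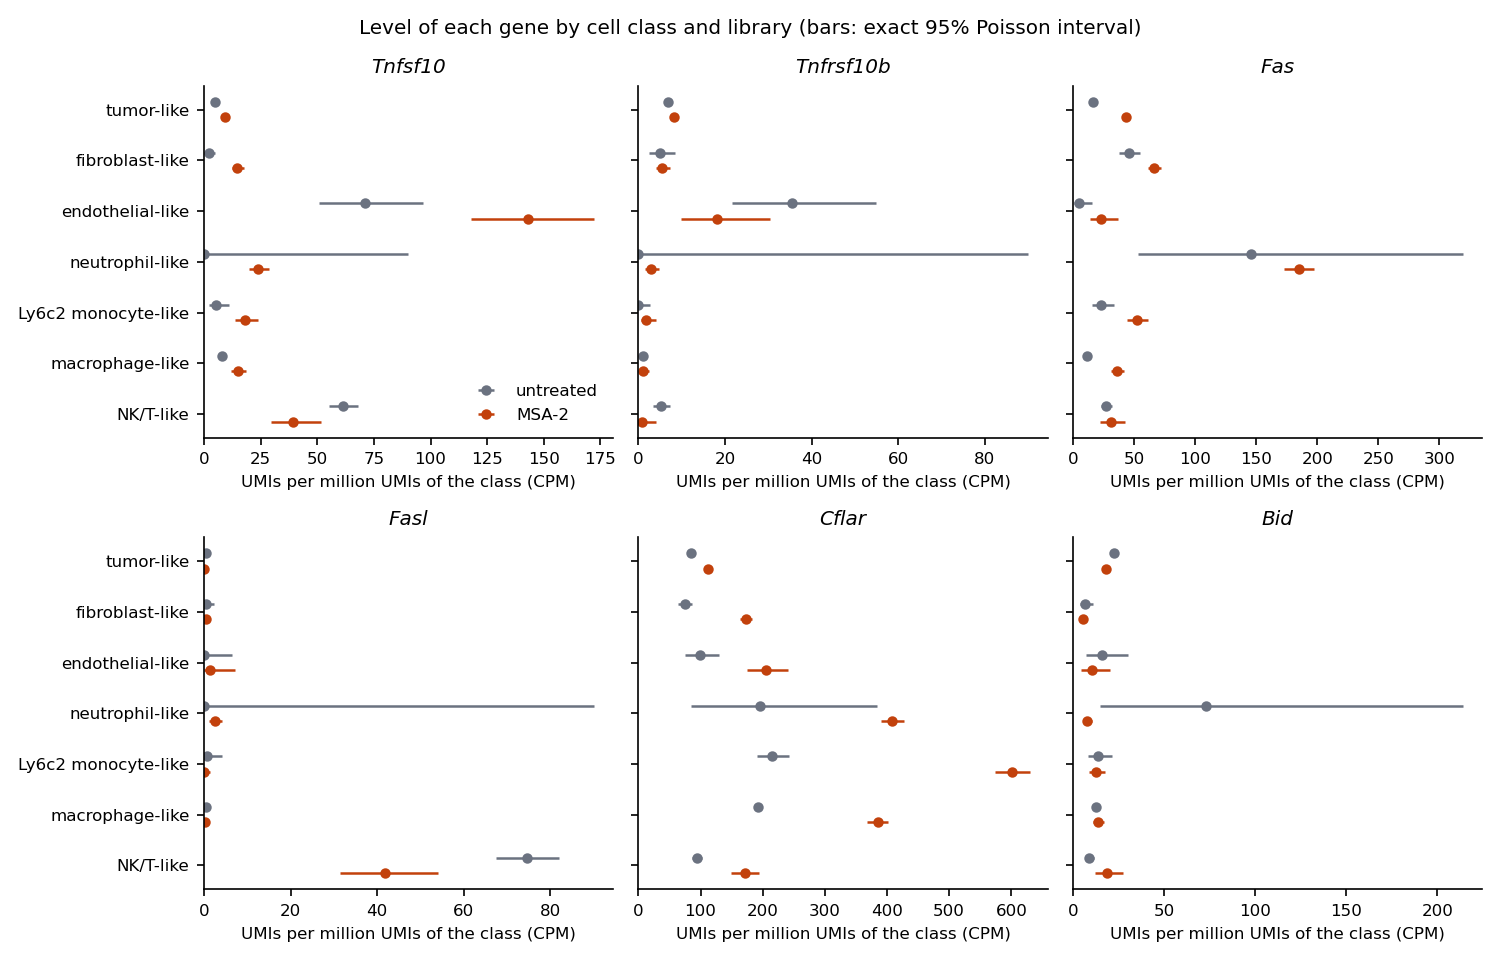
Level of each gene in CPM of the class (x axis) in 7 cell classes (y axis) of the untreated (gray) and MSA-2 (orange) libraries, with exact 95% Poisson intervals as bars. Endothelial-like cells reach 143 CPM of Tnfsf10 and Ly6c2 monocyte-like cells 601 CPM of Cflar in the MSA-2 library; the 32 untreated neutrophil-like cells have the widest intervals.

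Fas, the receptor of Fas ligand, was higher after MSA-2 in every compared tumor, stromal and myeloid class. Over all cells it was at 16.6 CPM in the untreated and 48.3 CPM in the MSA-2 library, a 2.90-fold difference (log2 ratio 1.54, 1.48 to 1.60). Tumor-like cells carried 2357 and 6982 Fas UMIs, 16.3 CPM (15.7 to 17) against 43.5 CPM (42.5 to 44.6). A Fas UMI was found in 26.2% of untreated and 52.1% of MSA-2 tumor-like cells, and in 2.87% and 6.94% after thinning, so the share and the level had the same order at matched depth. Within the shared tumor-like clusters the ratio was smaller and under 2-fold, 0.89 (0.28 to 1.57) in cluster 9 and 0.94 (0.47 to 1.38) in cluster 12. Macrophage-like cells went from 11.7 to 36.5 CPM (log2 ratio 1.64, 1.36 to 1.91) and Ly6c2 monocyte-like cells from 23.4 to 52.4 CPM (1.16, 0.60 to 1.77). Fas was not higher after MSA-2 within macrophage-like cluster 18, with 45.6 CPM in the 76 untreated cells against 37.7 CPM in the 760 cells after MSA-2 (-0.27, -0.93 to 0.46), and was higher within cluster 4, with 10.5 CPM in 1664 and 25.8 CPM in 114 cells (1.29, 0.43 to 2.06). The monocyte-like value was 0.94, under 2-fold, with equal weight per cell.

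Fibroblast-like cells had the highest untreated Fas level of the compared classes, 46.0 CPM (37.9 to 55.3), and a smaller difference, to 66.7 CPM (log2 ratio 0.54, 0.24 to 0.84). Endothelial-like cells had 3 untreated and 18 MSA-2 UMIs and a wide interval of 0.36 to 4.54 around a log2 ratio of 2.13. In NK/T-like cells the levels of 27.5 and 31.3 CPM were not distinguishable (log2 ratio 0.18, -0.34 to 0.68). In the MSA-2 library the order from the top was neutrophil-like (185 CPM), fibroblast-like (66.7), Ly6c2 monocyte-like (52.4), tumor-like (43.5), macrophage-like (36.5), NK/T-like (31.3) and endothelial-like cells (23.4). In that order only the neighbors neutrophil-like and fibroblast-like, and tumor-like and macrophage-like, had intervals apart.

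Tnfrsf10b, the TRAIL receptor, differed less. In tumor-like cells, where most of it lay, its level was 6.94 CPM (1002 UMIs) in the untreated and 8.32 CPM (1334 UMIs) in the MSA-2 library, a 1.2-fold difference (log2 ratio 0.26, 0.14 to 0.38). Over all cells the log2 ratio was 0.31 (0.20 to 0.42). Endothelial-like cells had the highest level per class, 35.5 CPM (21.7 to 54.9) in the untreated library, but on 20 UMIs, and 18.2 CPM (9.95 to 30.5) on 14 UMIs after MSA-2, so their log2 ratio of -0.97 (-2.06 to 0.09) did not exclude equal levels. Macrophage-like cells stood near 1 CPM in both libraries (1.11 and 1.08 CPM). NK/T-like cells had 29 untreated UMIs and 1 MSA-2 UMI, a log2 ratio of -2.78 with an interval of -8.13 to -0.19. Untreated Ly6c2 monocyte-like cells had 0 UMIs in 363 cells, which allows up to 2.27 CPM.

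Cflar, the inhibitor, was higher after MSA-2 in every class compared. Over all cells the level was 99.9 CPM in the untreated and 142 CPM in the MSA-2 library (log2 ratio 0.51, 0.48 to 0.54). The highest value of any compared class was that of Ly6c2 monocyte-like cells, with 215 CPM (191 to 242) untreated and 601 CPM (573 to 630) after MSA-2, a 2.79-fold difference. Macrophage-like cells followed with 193 and 385 CPM, a 1.99-fold difference. Within shared macrophage-like clusters Cflar differed less, with 189 and 229 CPM in cluster 4 (log2 ratio 0.27, 0.02 to 0.52) and 311 and 386 CPM in cluster 18 (0.31, 0.07 to 0.57). Fibroblast-like cells went from 74.9 to 173 CPM (log2 ratio 1.21, 0.98 to 1.44), endothelial-like cells from 99.5 to 205 CPM (1.05, 0.60 to 1.51) and NK/T-like cells from 94.1 to 171 CPM (0.86, 0.63 to 1.08). The smallest difference was that of tumor-like cells, 83.9 to 112 CPM (0.41, 0.38 to 0.44). Cflar UMIs were found in 75.2% and 82.2% of tumor-like cells, and in 12.0% and 17.1% after thinning. The endothelial-like value was under 2-fold with classes from clusters (0.97) and with equal weight per cell (0.80).

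Bid, the mitochondrial link, was lower in tumor-like cells and higher in NK/T-like cells. In tumor-like cells its level was 22.6 CPM (21.8 to 23.4) untreated and 18.2 CPM (17.5 to 18.8) after MSA-2, a 1.24-fold difference (log2 ratio -0.31, -0.39 to -0.24) on 3262 and 2913 UMIs. Within tumor-like cluster 9 the log2 ratio was -0.36 (-0.90 to 0.23). Within cluster 12 it was -1.28 (-2.92 to -0.02), on 141 and 5 UMIs. Macrophage-like cells had 12.6 and 13.8 CPM, with a log2 ratio of 0.13 (-0.25 to 0.50) that did not exclude equal levels, and fibroblast-like (-0.30) and Ly6c2 monocyte-like cells (-0.11) likewise had intervals that held 0. In NK/T-like cells the levels were 9 CPM (6.7 to 11.8) against 18.6 CPM (12.0 to 27.5), on only 51 and 25 UMIs. That ratio of 1.05 lost its 2-fold size in 3 of the alternatives (0.63 to 0.98). Within NK/T-like cluster 8 the log2 ratio of Bid was 1.21 (0.14 to 2.30), and cluster 14 had 14 and 5 UMIs and no ratio. Cluster 5, over all its 524 untreated and 67 MSA-2 cells, had Bid at 11.2 and 10.5 CPM, again without an interval. NK-like cells, a larger share of the class after MSA-2, had a log2 ratio of 1.41 (0.15 to 2.72), and CD8 T-like cells 0.41 (-1.34 to 1.85). The share of NK/T-like cells with a Bid UMI was 3.50% and 8.64%, but 1.60% and 1.28% after thinning, so no order was read from the shares.

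**Figure D3:**
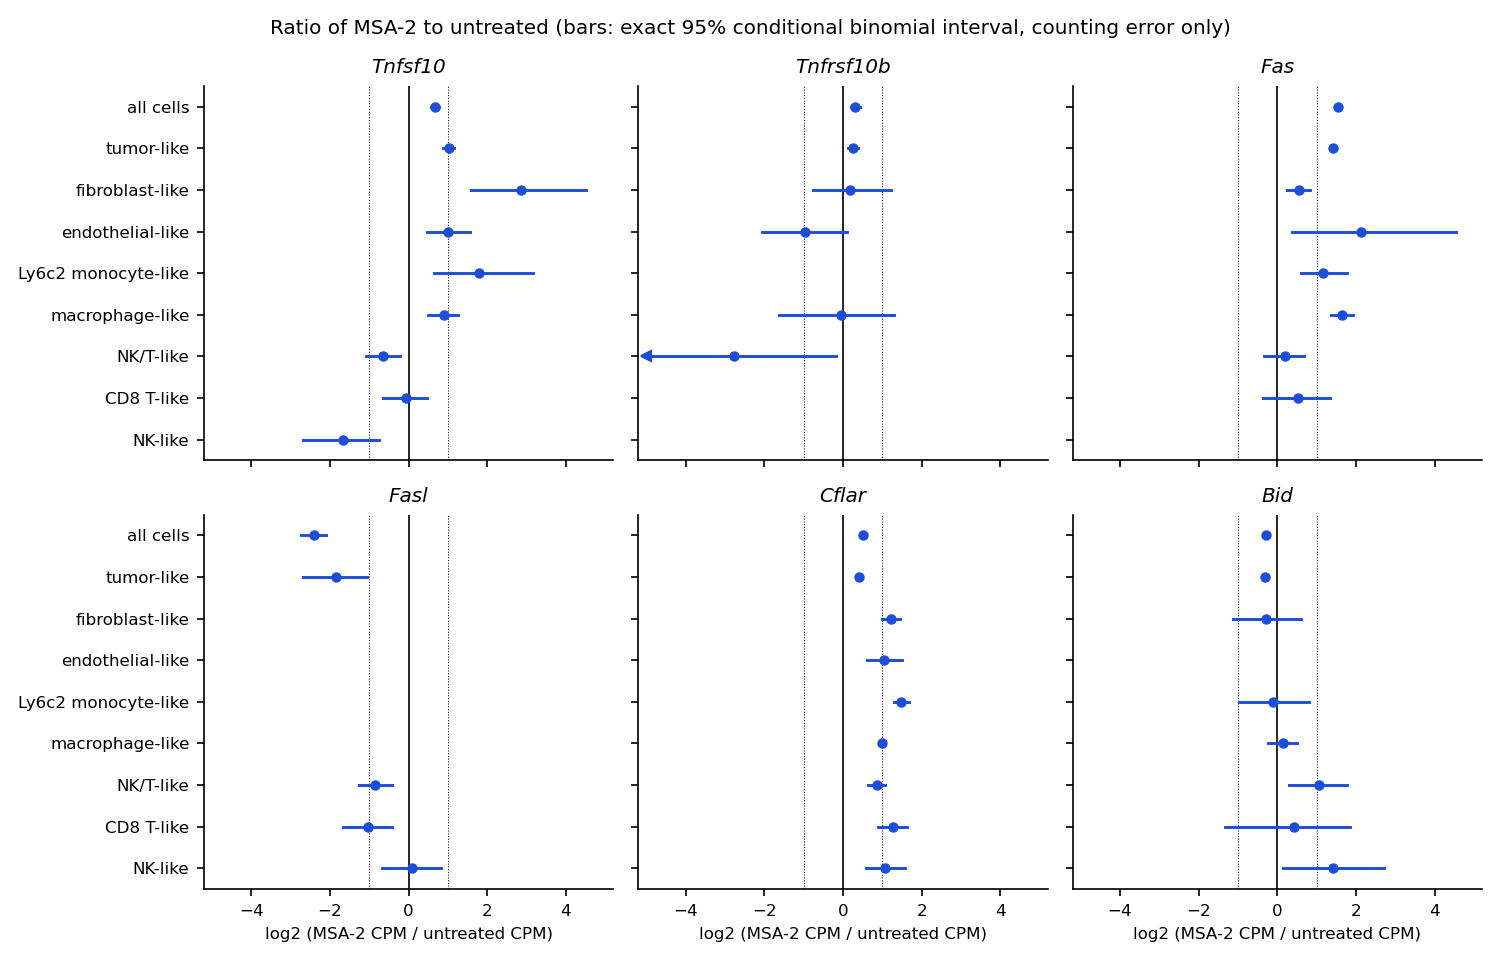
Log2 ratio of MSA-2 over untreated CPM (x axis) for each gene over all cells and in 8 classes (y axis), with exact 95% conditional binomial intervals; dotted lines mark 2-fold, an arrow an interval that runs past the axis, and classes with fewer than 20 UMIs or a count of 0 have no point. All Cflar points and 6 of 9 Tnfsf10 points lie above 0, and Tnfsf10 lies below 0 in NK-like cells (-1.66).

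The ligands were also measured in the T cell and NK cell subsets of the NK/T-like class. In CD8 T-like cells Fasl was at 101 CPM (90 to 113) untreated, the highest level of any class, and at 49.9 CPM (32.3 to 73.7) after MSA-2, a 2.03-fold lower level (log2 ratio -1.02, -1.67 to -0.43) on 297 and 25 UMIs. In NK-like cells Fasl was at 45.5 and 48.6 CPM, with a log2 ratio of 0.09 (-0.67 to 0.83). The levels of Tnfsf10 in CD8 T-like cells were 68.8 and 65.9 CPM (log2 ratio -0.06, -0.64 to 0.47), whereas NK-like cells went from 70.9 CPM (54.9 to 90) to 22.4 CPM (11.6 to 39.2), a 3.16-fold lower level on 67 and 12 UMIs. Whether the 2 subsets differed in these ratios was not tested. The intervals of the Fasl ratios overlapped between the subsets, and those of the Tnfsf10 ratios did not (-0.64 to 0.47 and -2.68 to -0.76). The CD8 T-like Fasl ratio was -0.97 with a doubled gate margin and -0.72 with equal weight per cell, both under 2-fold.

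Cflar was higher in both subsets, from 76.0 to 182 CPM in CD8 T-like cells (log2 ratio 1.26, 0.89 to 1.62) and from 69.8 to 148 CPM in NK-like cells (1.08, 0.59 to 1.57, but 0.82 with equal weight per cell). Bid was at 10.6 and 28.0 CPM in NK-like cells, on 10 and 15 UMIs. In CD8 T-like cells Bid had 22 and 5 UMIs and a log2 ratio of 0.41 (-1.34 to 1.85). Fas gave 22.2 and 31.9 CPM in CD8 T-like cells and 8.46 and 13.1 CPM in NK-like cells, in both cases with intervals that overlapped between the libraries. Treg-like cells had the highest Fas level of the untreated lymphocyte subsets with at least 50 cells, 54.5 CPM (33.3 to 84.2), and their 8 MSA-2 cells were too few to compare. That interval overlapped the one of untreated NK/T-like cells outside the gated subsets, 45.2 CPM (34.2 to 58.6).

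**Figure D4:**
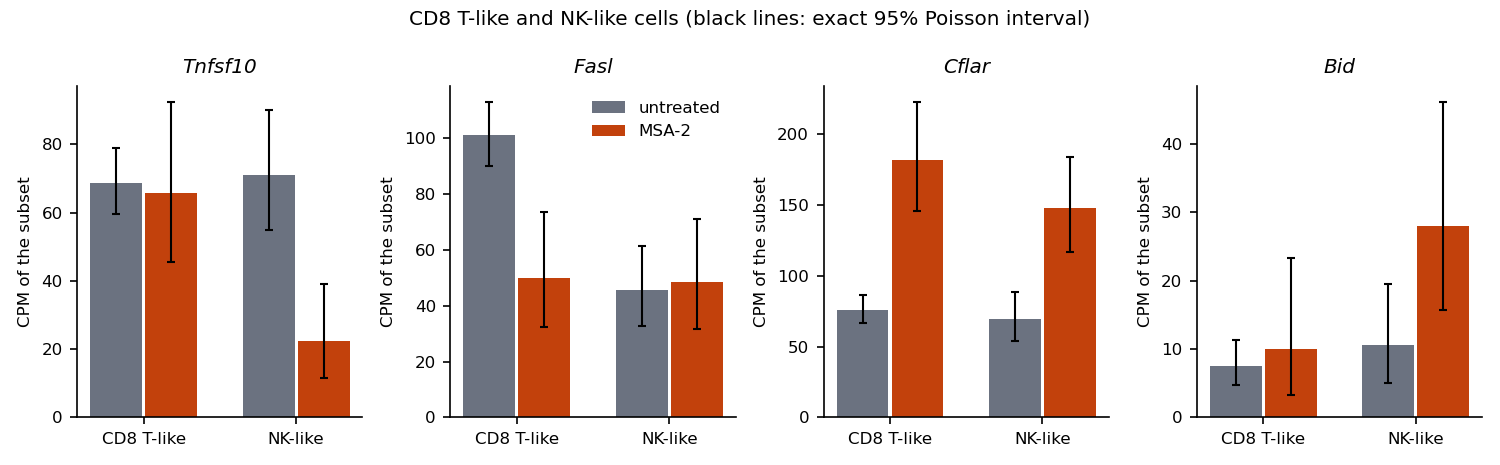
Level of Tnfsf10, Fasl, Cflar and Bid in CPM (y axis) in CD8 T-like and NK-like cells of the untreated (gray) and MSA-2 (orange) libraries, with exact 95% Poisson intervals as black lines. Fasl is lower after MSA-2 in CD8 T-like cells (101 to 49.9 CPM) and Tnfsf10 in NK-like cells (70.9 to 22.4 CPM).

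Neutrophil-like cells made up 0.24% of untreated and 18.8% of MSA-2 cells, and only their MSA-2 levels had narrow intervals. Fas was at 185 CPM (173 to 197), above every other MSA-2 class with at least 50 cells, and Cflar at 408 CPM (391 to 427). Tnfsf10 was at 23.8 CPM, Bid at 7.74 CPM, Tnfrsf10b at 2.85 CPM and Fasl at 2.45 CPM. In the 32 untreated cells of this class Fas had 6 UMIs (146 CPM, 53.7 to 319) and Cflar 8 UMIs (195 CPM, 84.2 to 384), too few for a comparison. Dendritic classes were nearly absent after MSA-2, with 69 and 3 cDC1-like, 152 and 0 cDC2-like and 70 and 18 mregDC-like cells. In mregDC-like cells, the mature regulatory dendritic class, Fas was at 101 CPM (72.1 to 137) in the untreated and 159 CPM (79.4 to 285) in the MSA-2 library. Cflar in these cells was at 431 CPM (369 to 501) and 824 CPM (624 to 1068), the highest Cflar levels of any class with at least 18 cells in each library.

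Tumor-like cells were not uniform. Among their 8 untreated clusters of at least 50 cells, Fas ranged from 7.08 to 35.8 CPM with a median of 19.3 CPM, and among their 7 MSA-2 clusters from 28.0 to 68.8 CPM with a median of 58.7 CPM, so the ranges overlapped. Tnfsf10 ranged from 1.84 to 13.1 CPM and from 4.77 to 33.7 CPM. Tnfrsf10b was more even, with 4.44 to 11.1 CPM and 5.02 to 11.6 CPM. Bid ranged from 17.3 to 28.7 CPM and from 7.02 to 22.7 CPM. Most of these clusters came from 1 library, so that for them a cluster and a library cannot be told apart, and these ranges are descriptions.

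The members can be set against all genes by counting levels that differed at least 2-fold among genes with at least 20 UMIs in a class. Over all cells 1 of 6 members was higher (Fas) and 1 lower (Fasl), beside 11.2% of all genes higher and 8.36% lower. In tumor-like cells 2 were higher (Tnfsf10 and Fas) and 1 lower (Fasl), beside 11.6% and 5.83% of genes. In fibroblast-like cells 2 of 5 were higher (Tnfsf10 and Cflar; background 7.67%) and 0 lower (9.41%). In endothelial-like cells (6.02% higher, 7.85% lower) and in Ly6c2 monocyte-like cells (12.2% and 11.5%), 3 of 4 were higher, in each case Tnfsf10, Fas and Cflar. In macrophage-like cells 1 of 5 was higher (Fas; 7.63%) and 0 lower (7.42%). NK/T-like cells had Bid higher (4.92%) and Tnfrsf10b lower (9.39%) of 6 members. CD8 T-like cells had Cflar higher (6.54%) and Fasl lower (11.3%) of 5, and NK-like cells Cflar and Bid higher (5.04%) and Tnfsf10 lower (8.50%) of 4. With so few members, and with members that passed the count minimum partly through the library in which they were high, these counts are descriptions. With at least 50 UMIs required, Fas in endothelial-like, Tnfrsf10b in NK/T-like and Bid in NK-like cells were no longer counted.

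The median log2 ratio of all genes lay between -0.25 in Ly6c2 monocyte-like and 0.07 in tumor-like cells. Scaling by edgeR's TMM factors, which assume that most genes are unchanged, moved the ratios by 0.25 in fibroblast-like, 0.16 in endothelial-like and 0.28 in Ly6c2 monocyte-like cells and by at most 0.08 in either direction elsewhere. For the interferon response itself, 10 interferon-stimulated genes had median log2 ratios of 1.63 in tumor-like, 2.84 in fibroblast-like, 3.28 in endothelial-like, 3.07 in Ly6c2 monocyte-like, 1.57 in macrophage-like, 2.83 in CD8 T-like and 1.38 in NK-like cells. All of these medians were above 0, and the relation of this list to the members was not tested.

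A list of 36 other genes of extrinsic and mitochondrial apoptosis gave the surroundings of the 6 members. Ratios of the listed genes were taken over whole classes only and not within shared clusters. In tumor-like cells 3 of 35 tested genes were at least 2-fold higher and 4 lower, beside 11.6% and 5.83% of all genes, with a list median of -0.17 against 0.07 for all genes. In macrophage-like cells 0 of 32 were higher and 1 lower (7.63% and 7.42% of all genes), and over all cells 1 of 35 was higher and 5 lower (11.2% and 8.36%). NK/T-like cells had 2 of 31 higher and 6 lower (4.92% and 9.39%), fibroblast-like cells 2 of 32 higher and 3 lower (7.67% and 9.41%), endothelial-like cells 2 of 24 higher and 3 lower (6.02% and 7.85%) and Ly6c2 monocyte-like cells 5 of 31 higher and 2 lower (12.2% and 11.5%). CD8 T-like cells had 2 of 27 higher and 2 lower (6.54% and 11.3%) and NK-like cells 1 of 22 higher and 3 lower (5.04% and 8.50%). The adaptors and initiators did not reach 2-fold over all cells or in tumor-like, macrophage-like or NK/T-like cells (0 of 5 in each), which at those shares of all genes says nothing particular about them. Casp8, the initiator caspase of both receptors, was at 51.9 and 35.3 CPM in tumor-like cells (log2 ratio -0.56, -0.61 to -0.51), and Fadd, the adaptor, at 9.78 and 9.50 CPM (-0.04, -0.15 to 0.06). The only adaptor or initiator past 2-fold in any class was Ripk1, the kinase of TNF receptor complexes, in NK-like cells, with 56.1 and 16.8 CPM.

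Among other death and decoy receptors, Tnfrsf11b, a soluble decoy for TRAIL also known as osteoprotegerin, was at 12.2 CPM in untreated cells and 38.6 CPM in MSA-2 fibroblast-like cells (log2 ratio 1.66, 1.12 to 2.25). Tumor-like cells had 7 and 55 Tnfrsf11b UMIs, under 1 CPM in each library. Tnfrsf23, a mouse decoy receptor for TRAIL, was at 9.07 and 28.7 CPM in Ly6c2 monocyte-like cells (1.66, 0.78 to 2.67) and had 23 and 12 UMIs in NK/T-like cells. Tnfrsf21, the orphan receptor DR6, was at 31.0 and 14.0 CPM in Ly6c2 monocyte-like cells. Tnfrsf25, the receptor DR3 of T cells, had 21 and 1 UMIs in NK/T-like cells and 20 and 6 in tumor-like cells.

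Of the 10 anti-apoptotic genes, 2 were at least 2-fold higher and 3 lower in tumor-like cells, beside 11.6% and 5.83% of all genes. In NK/T-like cells 0 were higher and 5 lower (4.92% and 9.39% of all genes). The subsets had fewer: 0 higher and 2 lower of 10 in CD8 T-like cells (6.54% and 11.3%), and 0 higher and 2 lower of 9 in NK-like cells (5.04% and 8.50%). Bcl2l1, which encodes Bcl-xL, was at 12.8 CPM in untreated cells and 34.9 CPM in MSA-2 tumor-like cells (log2 ratio 1.45, 1.37 to 1.52), and was lower in NK/T-like cells, at 68.7 and 23.8 CPM (-1.53, -2.09 to -1.01), a class of which NK-like cells were a larger share after MSA-2. In NK-like cells alone Bcl2l1 was at 16.9 and 26.2 CPM (0.63, -0.52 to 1.76), and in CD8 T-like cells at 54.5 and 26.0 CPM (-1.07, -2.01 to -0.26). Xiap, an inhibitor of executioner caspases, was at 11.1 and 22.8 CPM in tumor-like cells (1.04, 0.95 to 1.13) and had 46 and 371 UMIs in Ly6c2 monocyte-like cells (1.90, 1.45 to 2.37). Birc2 and Birc3 encode cIAP1 and cIAP2, ubiquitin ligases that hold TNF receptor signals away from caspase-8. Birc2 was at 149 and 58.8 CPM in NK/T-like cells (-1.34, -1.69 to -1.01) and at 23.1 and 49.4 CPM in endothelial-like cells, and Birc3 at 37.3 and 79.3 CPM in endothelial-like cells. Bcl2 was the only gene of the list past 2-fold in macrophage-like cells, at 29.1 and 12.0 CPM (-1.27, -1.66 to -0.91), and was also lower in Ly6c2 monocyte-like (-1.57, -2.34 to -0.81) and endothelial-like cells (-1.54, -2.53 to -0.62). In NK/T-like cells Bcl2 was higher, at 380 and 536 CPM (0.50, 0.37 to 0.62), as it was in NK-like cells (0.39, 0.18 to 0.59). In CD8 T-like cells it was at 428 and 471 CPM, with an interval that held 0 (0.14, -0.07 to 0.34). Bcl2a1a, Bcl2a1b and Bcl2a1d were at least 2-fold lower in both tumor-like and NK/T-like cells (-1.48, -1.02 and -1.09 in the latter). In CD8 T-like cells Bcl2a1b was at -0.44 and Bcl2a1d at -0.50, both under 2-fold, and Bcl2a1a at -2.03 on 24 and 1 UMIs. In NK-like cells Bcl2a1b was at -0.92 and Bcl2a1d at -1.38. These near-identical copies may share reads, which was not measured, and their separate values are uncertain. Bcl2a1b was at 20.6 and 8.97 CPM in tumor-like cells and at 1082 and 706 CPM in macrophage-like cells. The 10 macrophage markers together were likewise at 753 CPM untreated and 216 CPM after MSA-2 in tumor-like cells, and at 1014 and 229 CPM in NK/T-like cells, and their part in these differences was not tested.

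Of the BH3-only genes, whose products oppose Bcl-2 proteins, 0 of 6 tested were 2-fold higher or lower over all cells, beside 11.2% and 8.36% of all genes. Pmaip1, which encodes Noxa, was lower over all cells, at 18.8 and 12.2 CPM (log2 ratio -0.63, -0.70 to -0.55). Its log2 ratio was 0.05 (-0.17 to 0.28) in tumor-like and 0.39 (0.23 to 0.55) in macrophage-like cells. Pmaip1 was at 123 CPM in untreated cells and 609 CPM in MSA-2 CD8 T-like cells (log2 ratio 2.30, 2.08 to 2.53). It was also higher in NK-like cells (11.6 and 37.4 CPM) and Ly6c2 monocyte-like cells (55.2 and 195 CPM), and lower in fibroblast-like cells (13.8 and 6.56 CPM). Bbc3, which encodes Puma, was at 51.4 and 109 CPM in Ly6c2 monocyte-like cells, and Bik at 63.9 and 18.2 CPM in endothelial-like cells. Of the mitochondrial step, Apaf1, the scaffold of the apoptosome, was at 40.9 and 81.9 CPM in CD8 T-like cells. Casp9, the initiator that Apaf1 activates, had 5 and 22 UMIs in Ly6c2 monocyte-like cells.

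**Figure D5:**
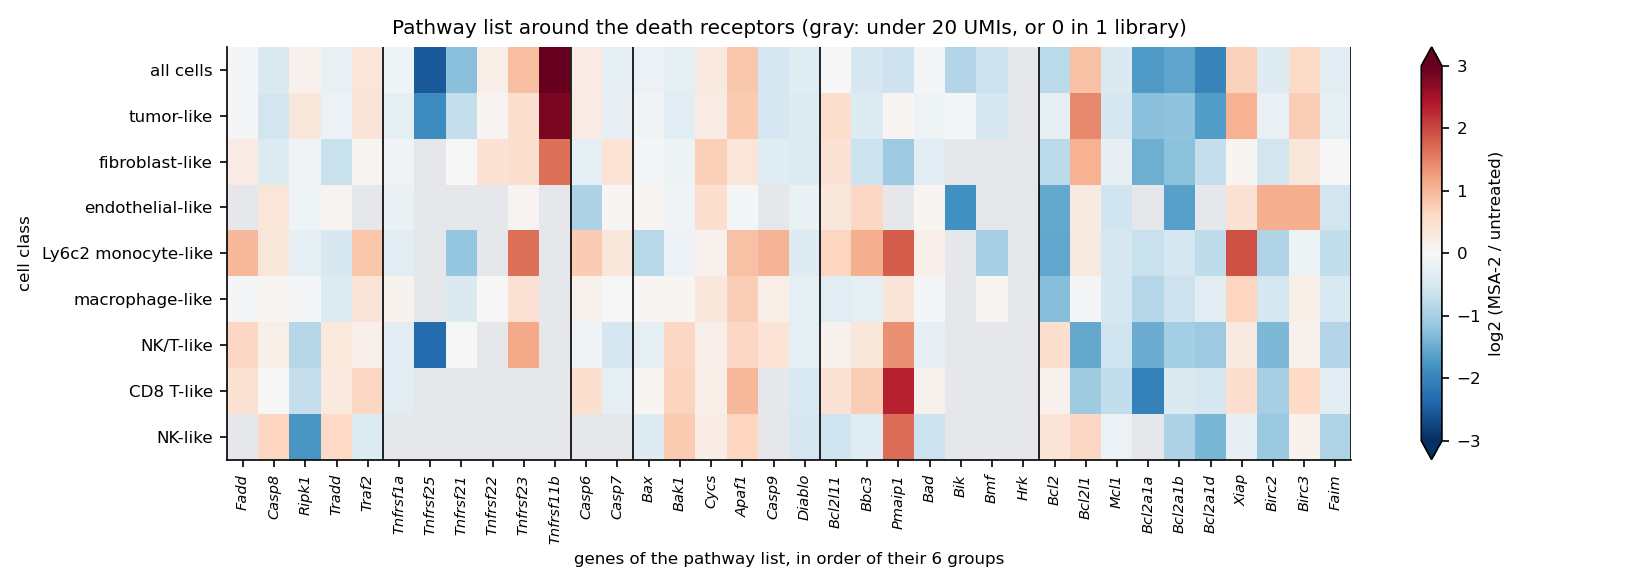
Log2 ratio of MSA-2 over untreated (color) for the 36 genes of the pathway list (x axis) over all cells and in 8 classes (y axis), with black lines between the 6 groups and gray where a gene had fewer than 20 UMIs or a count of 0 in a library. Bcl2l1 is higher in tumor-like (1.45) and lower in NK/T-like cells (-1.53), and Pmaip1 is highest in CD8 T-like cells (2.30).

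The patterns of the members across classes were compared over 16 sums of 1 class in 1 library with at least 50 cells, as Pearson's r of log2 of CPM plus 1. These sums share their libraries, so r is a description. Members were compared with 8729 or 8730 genes that passed a minimum of 10 CPM, which Fasl and Tnfrsf10b themselves did not pass. Cflar was most like Nampt (r = 0.945), Sp140 (0.905) and Cd274 (0.902), and Fas like Stx11 (0.875), Il15ra (0.807) and Helz2 (0.799). Fasl was most like Gm2682 (0.936), Trac (0.923), a T cell receptor gene, and Klra7 (0.918), an NK receptor gene. Tnfsf10 was most like Notch1 (0.883), Ppp1r13b (0.869) and Prkd2 (0.848), and Tnfrsf10b like Ptprk (0.924), Efnb2 (0.909) and Tmem47 (0.903). Bid had the weakest partners, Nup205 (0.780), Akirin1 (0.773) and Vta1 (0.764). Among the members themselves r was highest for Tnfsf10 with Tnfrsf10b (0.57), both high in endothelial-like cells, and lowest for Fas with Bid (-0.60).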

How the data were processed

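Single-cell 3′ RNA-seq was measured in 2 libraries of MC38 tumors. The authors deposited raw counts of UMIs per gene and barcode, without normalization. The submitters' processing notes name mm10, Cell Ranger 7.0.0 and Seurat 4.3.0; other Cell Ranger and Seurat versions stand in the file headers and the methods. The gate of the sort, the thresholds of the quality filter and any doublet removal are not given in the sources used here, and the cell numbers in the methods equal the deposited barcodes, 14386 untreated and 14617 MSA-2.

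Barcodes had to show 500 or more genes and no more than 20% mitochondrial UMIs, and doublets called by Scrublet (scanpy 1.11.5, 0.8% per 1000 barcodes) were removed (5.02% and 4.08%). A cell took the class of its best marker list if at least 3 markers had a UMI and its score, scaled to the mean of the 30 highest cells of that list, led the next by 0.05. Clusters came from Leiden clustering (python-igraph 0.11.9) at resolution 2 on 30 principal components of 2000 variable genes, without interferon-stimulated genes and the members.

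UMIs were summed per class and library and scaled to CPM. Intervals are exact at 95% (Poisson for levels, conditional binomial for ratios, Clopper-Pearson for shares) and cover counting error only; a count of 0 was taken to allow 3 counts. Called means at least 2-fold in genes with at least 20 UMIs in the class, in classes of at least 50 cells in each library. Named genes are all members, the pathway genes past 2-fold, and the 3 of most like pattern; Casp8 and Fadd were named outside this rule, after their values were seen. One gene of the pathway list is not reported here and was left out of its counts. The members and lists were chosen with earlier results of these data known. The ratio and interval code was tested on simulated data. Python 3.11.15, scipy 1.17.1, R 4.3.3 and edgeR 4.0.16 (TMM factors only) were used.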

Additional observations from a re-analysis of the deposited data

Results flagged for a closer look

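Some members had ratios whose intervals lay on opposite sides of 0 in different classes; the differences between classes were not tested. Tnfsf10 had log2 ratios of 1.02 in tumor-like, 2.85 in fibroblast-like, 1.01 in endothelial-like, 1.78 in Ly6c2 monocyte-like and 0.89 in macrophage-like cells, and of -0.64 in NK/T-like cells. Tnfrsf10b had 0.26 in tumor-like and -2.78 in NK/T-like cells, the latter on 29 and 1 UMIs. Bid had -0.31 in tumor-like and 1.05 in NK/T-like cells.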

How the results depend on the processing

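Of 344 values of 45 ratios under the alternatives other than single clusters, 326 stayed within the interval of the main value, 18 moved outside it and 0 of the ratios with an interval on 1 side of 0 changed sign. With equal weight per cell Tnfsf10 was 0.32 over all cells and 0.75 in tumor-like cells, Tnfrsf10b 0.20 over all cells, Fas 1.89 over all cells and 1.29 in tumor-like cells, and Cflar 1.05 over all cells, 0.55 in tumor-like and 1.09 in macrophage-like cells. With the stricter filter (1000 genes, 10% mitochondrial UMIs) Fas was 1.45 and Cflar 0.42 over all cells. With TMM factors Fas was 1.34, Cflar 0.33 and Bid -0.39 in tumor-like cells, and Cflar 1.46 in fibroblast-like and 1.77 in Ly6c2 monocyte-like cells. With 1 CPM added Tnfsf10 was 0.88 in tumor-like cells, and Fasl -1.32 over all cells and -0.33 in tumor-like cells. Within single clusters, an alternative added after the data had been seen, 1 ratio with a main interval on 1 side of 0 reversed. It was Fas in macrophage-like cells, at -0.27 in cluster 18. Bid in macrophage-like cells, with a main value of 0.13 and an interval that held 0, also changed sign in clusters 4 and 18. In macrophage-like cluster 4 Tnfsf10 was 0.19, Fas 1.29, Cflar 0.27 and Bid -0.26, and in cluster 18 Cflar was 0.31 and Bid -0.52. In tumor-like cluster 9 Fas was 0.89 and Cflar 0.35, and in cluster 12 Tnfsf10 was 1.35, Tnfrsf10b 0.03, Fas 0.94, Cflar 0.66 and Bid -1.28. In NK/T-like cluster 8 Tnfsf10 was -1.90, Fas 0.94, Fasl -0.28 and Cflar 1.21, and in cluster 14 Tnfsf10 was -0.05 and Cflar 1.30. The cause was not tested. Of 21 ratios past 2-fold, 8 were under 2-fold in at least 1 alternative other than single clusters, and 4 others passed it. Keeping doublets, no cell filter, a doubled margin and classes from clusters moved 0 values outside their intervals; classes from clusters left 10 untreated Ly6c2 monocyte-like cells and gave no ratio there. Thinning kept the order of the libraries in 43 of 54 shares. With at least 50 UMIs the pathway counts higher and lower over all cells were the same, 1 and 5, but went from 3 and 4 to 3 and 3 in tumor-like, 2 and 3 to 2 and 2 in fibroblast-like, 2 and 3 to 2 and 1 in endothelial-like, 5 and 2 to 4 and 2 in Ly6c2 monocyte-like, 2 and 6 to 1 and 5 in NK/T-like, 2 and 2 to 2 and 1 in CD8 T-like and 1 and 3 to 0 and 3 in NK-like cells. No paired analysis was possible because each group is 1 pooled library. Depth limits the rare classes most: 32 untreated neutrophil-like cells held 41002 UMIs in all.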
